A study of Mus musculus with 158 samples.

Results

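PIK3CA and Pik3cd stand for catalytic subunits of phosphoinositide 3-kinase (PI3K) in a pooled screen of short hairpin RNAs (shRNAs), sequences that each knock down 1 gene. The members were taken by target name. They comprise 1 control hairpin named PIK3CA (TRCN0000025615), which was meant to be in all 19 pools, and 4 hairpins against Pik3cd, in pools 5 (TRCN0000024646 and TRCN0000024648) and 16 (TRCN0000361345 and TRCN0000361415). Together they are 5 of 1008 hairpins. The cells were PDA530 Met, a mouse pancreatic adenocarcinoma line from a liver metastasis, infected with 1 pool of hairpins at a low virus dose and selected with puromycin in every arm. Each pool was sampled as a cell pellet at day 0, as cells kept in culture to day 28, and as lung tumours at day 28 after tail-vein injection into mice, with all tumours of a mouse pooled. The labels do not give the strain or age of the mice. Hairpins were amplified from genomic DNA and sequenced, so a value counts integrated hairpins and not RNA.

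PI3K turns a membrane lipid into a second messenger that recruits the kinase AKT and so feeds growth and survival signalling. PIK3CA encodes p110-alpha, the catalytic subunit found in most tissues, which acts downstream of receptor tyrosine kinases. Pik3cd encodes p110-delta, which is best known from leukocytes. The control is written PIK3CA in capitals, as human genes are, and the targeting hairpins of the same subunit are written Pik3ca. Hairpin sequences were not used here, so whether the control matches the mouse transcript was not tested.

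Values were available for 148 of 158 samples and, with technical repeats summed, for 142 libraries. A library held between 58189 and 26068466 reads, with a median of 7042360. Levels are given as CPM, the reads of a hairpin per 1000000 reads of the targeting hairpins of its own pool. Some culture libraries hold cells of 2 pools. In those the control was divided by the targeting reads of both, so its level there is a blend that cannot be split between the 2 pools. A level is therefore relative to the targeting hairpins, and falls when those expand. Where a value rests on 10000 reads or more, its 95% Wilson interval reaches at most 1.88% of the value to each side, and this covers counting error only. Lung 10C held 1946 targeting reads, and 99.2% of its reads were from controls. In lung 16D, 74.0% of reads (95% Wilson interval 74.0 to 74.1) came from hairpins of other pools. The same share was 18.7% in lung 17A and 15.3% in culture 16/17A, against a median of 0.213% over all libraries.

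The PIK3CA control was not at a working level in every pool. A pool was counted as holding it where its median over the pool's libraries was at least 500 CPM, a limit set after the values were seen. In 11 pools (1, 2 and 4 to 12) the day 0 means ran from 4308 to 39491 CPM. In the 8 others (3 and 13 to 19) they ran from 33.5 to 256. The nearest pool above the limit was pool 12, with a median of 1183 CPM, and the nearest below was pool 13, at 125. In the 8 pools, PIK3CA reads did not exceed those of the most abundant hairpin of another pool in 22 of 23 day 0 libraries, 15 of 16 culture libraries and 17 of 17 lung libraries. In the 11 pools this held for 0 of 33 day 0 libraries, 0 of 21 culture libraries and 4 of 32 lung libraries. PIK3CA was a median of 3.99% of all control reads at day 0 in the 11 pools and 0.0187% in the 8 others. The MUC1 control was also lower in these 8 pools, at day 0 means of 326 to 1685 CPM against 16146 to 86305 in the 11. It met the same limit in 13 of 19 pools, GFP and Non-targeting-shRNA-2 in 17, and the Cdkn1b and Non-targeting-shRNA-1 controls in 19.

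In the 11 pools that held it, the PIK3CA hairpin was lower after 28 days in culture than at day 0. It was also lower in every lung library of these pools except lung 10C. Pools 4 and 5 started highest. Pool 4 had 36716, 39089 and 42667 CPM at day 0, and 4696, 6908 and 9056 in its lungs. Pool 5 had 28920, 29480 and 33807 at day 0, and 3359, 3659 and 6354 in its lungs. The 3 culture libraries that these pools share had 7540, 8918 and 9065 CPM. Every culture and lung library of pools 4 and 5 was below every day 0 library. On plain targeting totals the median targeting hairpin of all pools itself changed by -0.73 in lungs and -0.64 in culture (log2). The share of all hairpins whose libraries did not overlap is not given, here or for the pools below.

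Pools 1 and 2 showed the same order of arms. Pool 1 had 16769, 17035 and 17923 CPM at day 0, and 2393, 2646 and 4125 in its lungs. Pool 2 had 18137, 19613 and 25306 at day 0, and 2482, 3060 and 4308 in its lungs. Their shared culture libraries had 4886, 5205 and 6701. On this scale the lungs were also below culture, with no overlap in either pool. With TMM scaling the lung difference from culture in pool 1 was 0.11 ± 0.33 (SE, limma, adjusted p = 0.822), so that order rests on the scaling.

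In pools 6 and 7 the mice of a pool differed more than the cultures did. Pool 6 had 14072, 15727 and 16144 CPM at day 0, and 469, 2870 and 6029 in its lungs. Pool 7 had 14781, 15416 and 17812 at day 0, and 2416, 7019 and 8222 in its lungs. Their shared culture libraries had 5761, 5901 and 6579. The lungs and culture overlapped in both pools, and all of these values were below day 0.

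Pools 8 to 11 are linked by shared culture libraries. At day 0, pool 8 had 15483, 17342 and 17417 CPM, pool 9 had 10096, 10380 and 11064, pool 10 had 11194, 12678 and 13101, and pool 11 had 18327, 18905 and 22814. The culture libraries of pools 8 and 9 had 3125, 3688 and 5252, those of pools 9 and 10 had 1789, 1883 and 2144, and those of pools 10 and 11 had 4203, 4836 and 5126. In every one of these 9 culture libraries the control was below the day 0 libraries of both pools named. In lungs, pool 8 had 1670, 2053 and 4838 CPM, pool 9 had 534 and 1887 in 2 libraries, and pool 11 had 1358, 2817 and 6755. Lungs 10A and 10B had 3184 and 1476. Lung 10C had 117539 PIK3CA reads beside its 1946 targeting reads, so a level in CPM has no use. PIK3CA was 2.09% of the control reads there.

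Pool 12 held the least of the control. It had 3731, 4407 and 4785 CPM at day 0, 701, 1183 and 1693 in culture, and 417, 486 and 1177 in its lungs. Both later arms lay below day 0, and they overlapped each other.

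Tests were made with limma on log2(CPM + 1), after TMM scaling, with p-values adjusted by Benjamini and Hochberg's method over the hairpin tests of all pools together. Between lungs and day 0, limma called 37.1% of 1027 hairpin tests at 0.05, and 22.5% in the lower direction. PIK3CA fell in 8 of the 11 pools that held it. The calls in pools 9 and 11 were each lost without any 1 of the 3 day 0 libraries, at adjusted p-values of 0.0638 to 0.0752 and 0.0672 to 0.0765. With 1 replicate letter left out at a time, the fall was called in 6 to 10 of the 11 pools. The changes ran from -1.45 ± 0.26 (SE, pool 1, adjusted p = 0.00673) to -2.59 ± 0.52 (SE, pool 12, adjusted p = 0.00353). The change was -2.32 ± 0.85 in pool 6 (adjusted p = 0.0578) and -1.25 ± 0.45 in pool 7 (adjusted p = 0.0552). Both passed with plain targeting totals, at adjusted p-values of 0.0221 and 0.0241. In lung 6A the hairpin had 19 reads beside 40555 targeting reads, and without that library the pool 6 change was -1.35 ± 0.32 (SE, adjusted p = 0.0209). In pool 10 it was 3.90 ± 5.00 (adjusted p = 0.578), with lung 10C among the 3 libraries, and -1.90 ± 0.34 (SE, adjusted p = 0.0105) without it. Of the 6 other pools with lung values, 1 was called lower, pool 15, where the level was 19.2, 71.5 and 399 CPM at day 0 and 0.128, 1.14 and 3.68 in lungs. Those lung levels are 1, 6 and 23 reads. The library with 399 CPM, day 0 15C, held 3.03% of reads from other pools.

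Across pools, the lung change was tested with the pools as replicates, by a two-sided sign-flip permutation test over all sign choices. Over all 17 pools with lung values the mean log2 change was -1.08 ± 2.69 (SD), lower in 14 of 17 pools (exact p = 0.117, 0.134 after adjustment over the 8 controls). This mean takes in the 6 pools with traces of the hairpin and the libraries that stand apart. Without lung 10C and lung 16D it was -1.71 (exact p = 0.000687). In the 11 pools that held the hairpin it was -1.65 ± 1.90 (SD, exact p = 0.0254). In those pools without lung 10C it was -2.18 ± 0.45 (SD), lower in 11 of 11 pools, a 4.54-fold smaller share (exact p = 0.000977, the smallest that 11 pools allow).

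Between culture and day 0, limma called 62.7% of 1089 hairpin tests, 34.3% in the lower direction. PIK3CA fell in 11 of 11 pools, with log2 changes from -0.92 ± 0.13 (SE, pool 7, adjusted p = 0.000489) to -1.90 ± 0.19 (SE, pool 8, adjusted p = 4.83e-05). In the 7 other pools tested the lowest adjusted p was 0.161, and 3 of the 7 changes were negative. The mean over the 11 pools was -1.37 ± 0.28 (SD), a 2.59-fold smaller share. Pools with shared culture libraries are not independent, and the 11 pools form 5 sets without shared libraries. Over these sets the mean was -1.34 ± 0.21 (SD) and lower in 5 of 5, with an exact p of 0.0625, the smallest that 5 sets allow. Over the 9 sets of all 18 pools the mean was -0.68 ± 0.98 (SD, exact p = 0.0820, 0.0938 after adjustment over the 8 controls). It was -0.84 without culture 16/17A (exact p = 0.0234). With plain targeting totals in place of TMM it was -1.23 (exact p = 0.0156).

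The scaling moves all of these values together. With plain targeting totals the median targeting hairpin shifted by -0.59 in lungs against day 0 and by -0.54 in culture against day 0, relative to TMM. The calls over all hairpins then went from 231 lower and 150 higher to 331 lower and 97 higher in lungs, and from 374 lower and 309 higher to 538 lower and 184 higher in culture. PIK3CA was negative in 10 of 11 pools in lungs and in 11 of 11 in culture under TMM, plain totals, edgeR and DESeq2. The pool 10 value was the exception in lungs. With the deposited scaling it was negative in 11 of 11 pools in both arms. It was then called lower in 9 of 11 in lungs and 9 of 11 in culture, where the smallest change was -0.33.

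In most pools lungs and culture were not separated. Lung and culture comparisons share the same day 0 libraries, so the arms were also compared directly. Between lungs and culture, limma called 25.5% of 1025 hairpin tests, 14.2% in the lower direction. PIK3CA was called lower in lungs in 1 of 11 pools, pool 5, by -1.22 ± 0.32 (SE, adjusted p = 0.0188). Leaving out culture replicate A, B or C moved that p to 0.0693, 0.100 or 0.0546, and leaving out lung replicate A to 0.0504. The culture libraries of pool 5 also hold pool 4, whose mean in lungs was higher (6886 against 4457 CPM). The call is thus not a difference within pool 5 alone. With the deposited scaling PIK3CA was called lower in 5 of 11 pools, and with targeting reads of 1 pool in 6. The lung libraries lay wholly below culture in 3 of the 11 pools, 1, 2 and 5, and overlapped it in the other 8. This is a count of plain levels, on which the median targeting hairpin itself differed by -0.26. In pool 1 the TMM-scaled difference was not negative. Over the 8 sets of all pools the mean difference was -0.24 ± 1.61 (SD, exact p = 0.680, 0.777 after adjustment over the 8 controls). In the 11 pools without lung 10C it was -0.72 ± 0.52 (SD), negative in 10 of 11 pools. With pools as units the exact p was 0.00293. Over the 5 sets without shared libraries it was 0.0625, the smallest possible.

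PIK3CA was then set against the other 7 controls within the same libraries, a ratio in which the targeting reads cancel. Over all pools, PIK3CA minus the mean of the others was -0.07 ± 1.75 (SD, 17 pools, exact p = 0.880) in lungs against day 0. It was 0.15 ± 0.75 (SD, 9 sets, exact p = 0.551) in culture against day 0 and -0.07 ± 1.10 (SD, 8 sets, exact p = 0.773) between lungs and culture. Without lung 10C and 16D it was -0.32 in lungs against day 0 (exact p = 0.396) and -0.26 between lungs and culture (exact p = 0.469). Without lung 17A and culture 16/17A as well, these were -0.41 (exact p = 0.210) and -0.20 (exact p = 0.555). Without culture 16/17A it was 0.017 in culture against day 0 (exact p = 0.926). These means include pools where PIK3CA or another control was at trace level. In the 11 pools, with controls counted only where they met the limit and without lung 10C, the difference in lungs was -0.74 ± 0.53 (SD, negative in 9 of 11 pools, exact p = 0.00391). The limit uses medians over all arms, so a control can be left out because it fell. Leaving out a control that fell more than PIK3CA makes the difference more negative. In culture it was -0.41 ± 0.31 (SD, 5 sets, exact p = 0.125), and the smallest p there is 0.0625.

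The other controls did not move together, and of those described PIK3CA was among the lower ones. In lungs against day 0, without lung 10C, PIK3CA changed by -2.18 in the 11 pools. The hairpin against the cell-cycle inhibitor Cdkn1b (TRCN0000071063) rose by 1.62 in the same pools, and PIK3CA lay 3.80 ± 0.67 (SD) below it in 11 of 11 pools (exact p = 0.000977, 0.00342 adjusted over 7 controls). Non-targeting-shRNA-1 changed by 0.64, and PIK3CA lay 2.82 ± 0.88 (SD) below it in 11 of 11 pools (exact p = 0.000977, 0.00342 adjusted). The GFP hairpin changed by -0.44 in 9 pools, and PIK3CA lay 1.81 ± 0.50 (SD) below it in 9 of 9 (exact p = 0.00391, 0.00684 adjusted).

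Non-targeting-shRNA-2, a hairpin labelled as having no target, changed by -3.26 in 9 pools. PIK3CA lay 1.01 ± 1.31 (SD) above it (exact p = 0.0547, 0.0766 adjusted). The MUC1 hairpin changed by -1.94. The difference of PIK3CA from it was -0.25 ± 0.81 (SD, exact p = 0.327) over 11 pools, so the 2 were not separated beyond the spread between pools.

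In culture PIK3CA changed by -1.37 in the 11 pools, MUC1 by -2.64 and Non-targeting-shRNA-2 by -2.30. GFP changed by 0.20, Cdkn1b by 0.48 and Non-targeting-shRNA-1 by 0.96. PIK3CA was above MUC1 in 11 of 11 pools, by 1.27 ± 0.42 (SD), and above Non-targeting-shRNA-2 in 9 of 9, by 0.92 ± 0.36 (SD). With 4 or 5 independent sets none of these differences could reach 0.05, and the exact p was 0.0625 for MUC1.

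In culture against day 0 the control whose pool changes were most like those of PIK3CA was GFP (Pearson r = 0.88 over 9 pools). For GFP r was 0.35 in lungs against day 0 and 0.60 between lungs and culture, rank 2 in both. The points share their libraries and targeting reads, and the values are descriptions.

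In pools 16 and 17, where PIK3CA was at trace level, its highest levels were in libraries with many reads of another pool. Lung 17A had 2886 CPM, lung 17B 648 and lung 17C 2.47, and the day 0 libraries of pool 17 had 54.0, 64.6 and 137. Culture 16/17A had 917 CPM against 17.2 and 14.7 in 16/17B and 16/17C. Lung 16D had 3821 PIK3CA reads beside 42538 targeting reads of pool 16, and lung 16E had 71.0 CPM. Reads of pool 10 made up 71.0% of lung 16D, 14.5% of lung 17A and 14.9% of culture 16/17A. Per 1000000 reads of pool 10, PIK3CA had 857 in lung 16D, 11144 in lung 17A and 4164 in culture 16/17A. In libraries of pool 10 itself it was 11194 to 13101 at day 0, 5583 to 6513 in culture 9/10, 8792 to 14267 in culture 10/11, and 1476 and 3184 in lungs 10A and 10B. Lung 17B had 69687 on the same scale. The part of these reads in the changes of pools 16 and 17 was not tested.

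The targeting hairpins against Pik3cd did not move in 1 direction. In pool 5, TRCN0000024648 expanded in culture while TRCN0000024646, against the same gene, shrank there. At day 0 TRCN0000024648 had 47231, 49316 and 49788 CPM, the 7th most abundant of 52 hairpins in all 3 libraries. In culture it had 159536, 160708 and 162709, the most abundant hairpin of the pool in 3 of 3 libraries and 16.0 to 16.3% of its reads. In lungs it had 45648, 57627 and 59308. Culture stood wholly above both other arms, and lungs overlapped day 0.

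Limma gave TRCN0000024648 a log2 change of 2.47 ± 0.08 (SE, adjusted p = 1.32e-09) in culture, the 3rd highest of the pool's 52 hairpins. The direct difference of lungs from culture was -1.81 ± 0.16 (SE, adjusted p = 3.74e-05), lower in 3 of 3 lung libraries and the 4th lowest of the pool. With the deposited scaling both differences were smaller, at 1.07 in culture against day 0 (adjusted p = 6.13e-07) and -0.65 between lungs and culture (adjusted p = 0.0102). In lungs against day 0 the change was 0.70 ± 0.22 (SE, adjusted p = 0.0456). That last call rests on the scaling, since the plain levels overlapped. With plain targeting totals it was 0.14 (adjusted p = 0.451). Leaving out lung replicate B or day 0 replicate B or C also ended the call, at adjusted p-values of 0.0622, 0.0605 and 0.0628. It was lost with the deposited scaling as well, and stood in 16 of 21 settings.

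TRCN0000024646 started at a similar level and went the other way. It had 43173, 46583 and 48180 CPM at day 0, 7799, 10567 and 13152 in culture, and 16569, 16604 and 27033 in lungs. The 3 arms did not overlap, with culture lowest. The log2 change was -1.41 ± 0.20 (SE, adjusted p = 0.000136) in culture, the 8th lowest of 52. It was -0.68 ± 0.32 (SE, adjusted p = 0.141) in lungs against day 0 and 0.70 ± 0.31 (SE, adjusted p = 0.133) in lungs against culture. With plain targeting totals the lung change from day 0 was -1.23 (adjusted p = 0.000942), and without lung 5A it was -1.07 (adjusted p = 0.000279). It also passed with the deposited scaling, at -0.96 (adjusted p = 0.0120), and without day 0 replicate C, at -0.83 (adjusted p = 0.0480). The deposited scaling gave -2.82 in culture against day 0 (adjusted p = 1.66e-07) and 1.86 between lungs and culture (adjusted p = 0.00303). By DESeq2 the difference of lungs from culture was 0.83 (adjusted p = 0.0281). Between day 0 and culture the 2 hairpins thus went from near equal shares of pool 5 to 16.1% for TRCN0000024648 and 1.05% for TRCN0000024646. Opposite calls for 1 gene were common. In culture against day 0, 95 of 162 genes with 2 or more called hairpins in a pool had calls in both directions (58.6%).

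In pool 16, TRCN0000361415 was lower in both later arms. It had 50454, 51429 and 55299 CPM at day 0. Its 5 culture libraries ran from 9707 to 13235 with a median of 11056, and the lungs 16D and 16E had 13212 and 19787. Neither later arm reached day 0, and lung 16D rests on 562 reads of the hairpin. The log2 change was -1.43 ± 0.23 (SE, adjusted p = 0.000329) in culture and -1.43 ± 0.32 (SE, adjusted p = 0.0267) in lungs. Lungs and culture differed by 0.16 ± 0.34 (SE, adjusted p = 0.759), by 0.34 without lung 16D and by 0.42 without culture 16/17A as well. Without culture 16/17A the culture change was -1.51 ± 0.24 (SE, adjusted p = 0.000254). Without lung 16D the lung change was -1.004 ± 0.11 (SE, adjusted p = 0.000243), with 1 lung library left that was assumed to vary like the day 0 libraries. Over 21 settings the lung change ran from -4.45 to -1.004 and was called in 17. The call was lost with the deposited scaling, where the change was -4.45 ± 2.14 (SE, adjusted p = 0.169), with the replicate letters as a block, at -1.44 ± 0.77 (SE, adjusted p = 0.150), and without day 0 library 16A or 16E (adjusted p = 0.0967 and 0.0713).

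TRCN0000361345 was rare throughout, at 58.2, 134 and 143 CPM at day 0, 28.5 to 177 in 5 culture libraries, and 23.5 and 125 in lungs. The lung 16D value is 1 read, with a 95% Wilson interval from 4.15 to 133 CPM. It was the rarest or next to rarest of 54 hairpins at day 0. Its log2 changes were 0.40 ± 0.84 (SE, adjusted p = 0.702) in culture and -0.65 ± 1.22 (SE, adjusted p = 0.713) in lungs. Without culture 16/17A the first was 0.23 (adjusted p = 0.828), and without lung 16D the second was 0.66 (adjusted p = 0.395). None of these passed the test. Without lung 16E, which leaves the 1 read of lung 16D, the lung change was -1.96 (adjusted p = 0.0341). Of the 4 Pik3cd hairpins, 2 fell and 1 rose in culture against day 0, beside 34.3% and 28.4% of all hairpin tests. In lungs against day 0, 1 fell and 1 rose, beside 22.5% and 14.6%.

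The hairpins most like each Pik3cd hairpin over the libraries of its pool were not other Pik3cd hairpins. For TRCN0000024646 they were hairpins against Pcsk6 (r = 0.96), Ptpn12 (r = 0.95) and Dnahc5 (r = 0.90) over 9 libraries. For TRCN0000024648 they were Coch (r = 0.97), Aldoa (r = 0.87) and F8 (r = 0.78), and its r with TRCN0000024646 was -0.81. For TRCN0000361415 they were Slit2 (r = 0.94), Ryr2 (r = 0.89) and Nfyb (r = 0.82) over 10 libraries. Without lung 16D they were Prkdc (r = 0.96), Slit2 (r = 0.95) and Ttn (r = 0.95). For TRCN0000361345 the highest r was 0.592, and 0.378 without lung 16D. Shares of a pool are tied to one another by their sum, and these are descriptions of log2 levels with no test.

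The mouse gene for the subunit that the control is named for, Pik3ca, had 3 hairpins in pool 3, where no lung values were available. TRCN0000234001 had 6990 and 8160 CPM in 2 day 0 libraries and 1590, 1623 and 2154 in culture, a log2 change of -1.39 ± 0.25 (SE, adjusted p = 0.00310). TRCN0000234002 had 2201 and 2255 at day 0 and 356, 477 and 1029 in culture (-1.29 ± 0.52, SE, adjusted p = 0.0714). TRCN0000234003 had 49436 and 53024 at day 0 and 24750, 26240 and 29867 in culture (-0.23 ± 0.12, SE, adjusted p = 0.156). All 3 were lower in each culture library than at day 0 on the plain scale, where the median targeting hairpin of all pools changed by -0.64. Of the 3, 1 passed the test, beside 34.3% of all hairpin tests called lower. The PIK3CA control was at trace level in pool 3, so the 2 could not be compared in the same libraries.

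A list of 97 genes of the PI3K pathway had 8 genes with targeting hairpins in the library, Pik3cd included. The 19 hairpins against the 7 other genes gave 5 called lower and 4 called higher in culture against day 0, beside 34.3% and 28.4% of all hairpin tests, with a median log2 change of -0.56 beside -0.10 over all targeting hairpins. In lungs against day 0, 14 were tested, with 2 lower and 1 higher, beside 22.5% and 14.6%, and a median of -0.27 beside -0.13 overall. Between lungs and culture, 2 were lower and 1 higher, beside 14.2% and 11.2%, with a median of 0.08.

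A hairpin against Nras, a small GTPase that can activate PI3K (TRCN0000034390, pool 6), changed by -0.56 ± 0.16 (SE, adjusted p = 0.00944) in culture and by 2.35 ± 0.22 (SE, adjusted p = 0.000203) in lungs. In pool 16 the Nras hairpins TRCN0000348697 and TRCN0000351826 rose in culture, by 2.77 and 0.78 (adjusted p = 6.58e-07 and 0.00310). Without culture 16/17A these changes were 2.76 and 0.70 (adjusted p = 5.71e-07 and 0.00325). The first differed by -2.72 between lungs and culture (adjusted p = 0.0266), and by -3.79 without lung 16D, a value from 1 lung library. TRCN0000034390 went the other way there, by 2.77 (adjusted p = 8.23e-07), and TRCN0000351826 differed by 0.056 (adjusted p = 0.935). In lungs against day 0 the 2 hairpins of pool 16 changed by -0.10 and 0.69 (adjusted p = 0.908 and 0.276). Without lung 16D these changes were -0.93 and 1.06, again from 1 lung library.

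Hairpins against the growth factor receptor Egfr were called in both directions in culture. In pool 4 TRCN0000055221 changed by -0.58 (adjusted p = 0.00154) and TRCN0000055222 by 2.56 (adjusted p = 0.00108), and in pool 14 TRCN0000334115 changed by -1.68 (adjusted p = 0.00140). A hairpin against Cdkn1b (TRCN0000071064, pool 1) rose by 0.64 in culture (adjusted p = 0.00858). Of 3 hairpins against the small GTPase Rac1 in pool 15, TRCN0000310888 and TRCN0000310901 changed by -4.27 and -5.94 in lungs (adjusted p = 0.0153 and 0.01003). TRCN0000310901 had a TMM-scaled mean of 0.086 CPM in lungs and 127 at day 0. That lung mean is below the 1 CPM added before the log, so the size of its change depends on that constant. In culture against day 0 it changed by -4.00 (adjusted p = 0.0834). TRCN0000310888 also differed by -3.55 between lungs and culture (adjusted p = 0.0119). The lowest adjusted p of 3 hairpins against the kinase Prkca was 0.0963, in lungs against day 0.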

How the data were processed

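Hairpin reads were aligned with BWA 0.5.9, per the submitters' processing notes, and the genome build and the counting step are not stated there. The authors deposited a normalised signal per hairpin. Divided by the smallest value of its library, each of 27241 deposited signal values was whole within 0.01, so reads were recovered, and hairpins with no row were taken as 0. All values were missing in 10 samples. Technical repeats were summed. TMM factors (edgeR 4.0.16) came from the targeting hairpins of a pool, and limma 3.58.1 (R 4.3.3, trend and robust) was run per pool on log2(CPM + 1) of the 2 arms compared, with a mean of at least 10 reads. DESeq2 1.42.0 and edgeR were alternatives. Controls marked by an asterisk in the name were left out. Some hairpins that entered the tests and means over controls or lists are not reported here. Summaries used Python 3.11.15. The script was tested on simulated data.

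Day 0 libraries may be aliquots of 1 pellet, so their spread may be technical. Reads carry no molecular identifiers. No lane or run, per the file names, held pools with PIK3CA beside pools with traces of it, so lane and the presence of PIK3CA cannot be told apart. Apart from the hairpins not reported here, the rule for named hairpins took every PIK3CA and Pik3cd hairpin, the 3 most correlated with each Pik3cd hairpin, the control most like PIK3CA, the other controls, and the called members of the pathway list. Members and lists were chosen with earlier results of these data known.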

Additional observations from a re-analysis of the deposited data

Results flagged for a closer look

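In the culture libraries of pool 16, PIK3CA had 917 CPM in 16/17A, the next highest value being 211 and the lowest 9.85 over 5 libraries. In the culture libraries of pool 19, 18/19A had 370 CPM against 25.1 for the next of 4 libraries. Both stood apart by Dixon's criterion, which chance meets in about 1 of 20 groups, and 7 groups were tested. In pool 5 the effects in lungs and culture differed by the direct test for PIK3CA (-1.22, adjusted p = 0.0188, limma) and for Pik3cd TRCN0000024648 (-1.81, adjusted p = 3.74e-05, limma). The PIK3CA level in those culture libraries is a blend of pools 4 and 5. Pik3cd hairpins also had reads in libraries not named for their pools. The highest was TRCN0000024648 in culture 6/7C, with 3589 reads or 435 per 1000000 reads of that library, followed by 234 in 6/7B.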

How the results depend on the processing

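Over all 17 pools the lung change of PIK3CA from day 0 passed 0.05 with plain totals (-1.64), the deposited scaling (-2.03), without lung 10C and 16D (-1.71), also without lung 17A (-1.84), without lung replicate D (-1.38, exact p = 0.0149), in the pools with the hairpin (-1.65) and in those without lung 10C (-2.18). The culture change passed it with plain totals (-1.23), without culture 16/17A (-0.84), without culture replicate A (-1.14, exact p = 0.00391), with pools as units (-0.81) and in the pools with the hairpin as units (-1.37). Divided by the reads of 1 pool only, it was 0.051. The lung difference from culture passed with the deposited scaling (-1.22), without lung 10C and 16D (-0.75) and in the pools with the hairpin without lung 10C, as units (-0.72). With culture libraries named for 1 pool it was 0.99 over 4 sets. PIK3CA minus the others was 0.053 with the median of the others in lungs. In pools with the hairpin it was -0.74 in lungs and -0.41 in culture. The choice of these pools, the libraries left out besides 10C and 16D, and the lane setting were added after the data were seen. The cause of these shifts was not tested.

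Leaving out 1 replicate letter, PIK3CA ranged from -1.38 to -0.78 in lungs against day 0, from -1.14 to -0.42 in culture against day 0 and from -0.57 to 0.14 between lungs and culture. The difference from the other controls ranged from -0.17 to 0.053, from -0.22 to 0.41 and from -0.26 to 0.22. Hairpins called ranged from 211 to 477 in lungs against day 0 (381 with all libraries) and from 165 to 302 between lungs and culture. PIK3CA was then called between lungs and culture in 0 to 2 pools, and 1 to 3 Pik3cd hairpins in lungs against day 0. With the replicate block, 1 Pik3cd hairpin was called in lungs against day 0, and 1 with the deposited scaling. The block gave PIK3CA means of -1.06, -0.74 and -0.20 and changed no other call of a Pik3cd hairpin. In single pools it called the lung change of PIK3CA in pools 6 and 7 (adjusted p = 0.00224 and 0.0234) and lost it in pool 9 (0.0996). The letters were not taken as pairs in the main fit. Of same-letter pairs of lung and day 0 libraries, 19 of 49 deviated together at a correlation over 0.1 (mean 0.041). The same held for 30 of 59 of culture and day 0 (0.119) and 24 of 54 of lungs and culture (0.053). For pairs with different letters these were 32 of 98 (mean -0.023), 37 of 130 (-0.053) and 37 of 118 (-0.023). The same-letter means were higher in each comparison, so these counts do not show that pairing is absent. PIK3CA was called between lungs and culture in 2 pools by edgeR, of which pool 10 was higher (15.0), in 5 with the deposited scaling and in 6, all lower, with targeting reads of 1 pool, and 2 Pik3cd hairpins by DESeq2 and 2 with that scaling.

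TRCN0000361345 changed sign: 0.66 in lungs without lung 16D, against a range of -1.96 to 0.66 over replicates left out, and 0.18 and 0.34 between lungs and culture without the libraries that stand apart (range -1.97 to 0.18). In culture it was -0.37 with plain totals and -0.35 with the deposited scaling, with a range of -0.091 to 0.79. Over all 21 settings its lung change from day 0 ran from -3.40 to 0.66. Its difference between lungs and culture ran from -3.05 to 0.34 over 22 settings. TRCN0000361415 was -2.26 between lungs and culture with the deposited scaling, and ranged from -0.032 to 0.34 over replicates left out.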
